A study of Mus musculus with 8 samples.

Results

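Interferon response genes were followed in mouse hematopoietic stem cells (HSCs) that carried 0, 1 or 2 copies of the NrasG12D allele. The 43 genes were chosen by name, as receptors, transcription factors, RNA sensors, antiviral effectors and antigen processing genes of the interferon system. All non-control probes with one of these names were taken, and 41 of the 43 genes had such a probe, among 27745 gene names on the array. A gene was tested if a probe was well above background on at least 2 of the 8 arrays. This held for 27 of the 43, among 15101 genes tested in all.

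Each of 8 Agilent 1-colour arrays received total RNA of HSCs from the bone marrow of B6 mice. Control cells were Nras+/+ (n = 2), and the mutant groups were NrasG12D/+ (n = 3) and NrasG12D/G12D (n = 3). NrasG12D encodes an Nras protein, a small GTPase of growth factor signalling, that stays in its active form. How the allele was switched on, the age of the mice, how the HSCs were sorted and whether the samples are separate animals are not stated in the labels. The p-values therefore measure only the spread between these samples, which may be technical. The arrays sat on 2 slides: NrasG12D/+ replicates 1 and 2 shared slide 1 with the Nras+/+ arrays, and NrasG12D/+ replicate 3 shared slide 2 with all NrasG12D/G12D arrays. No slide therefore held both Nras+/+ and NrasG12D/G12D.

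Cells sense viral RNA through proteins such as Ifih1 and Ddx58, and answer with type I interferons, which bind the receptor made of Ifnar1 and Ifnar2. The receptor's kinases activate Stat2, which joins Irf9 in a complex that binds a DNA element called the ISRE in the promoters of antiviral genes. Interferon gamma acts through Ifngr1 and Ifngr2, and promoters of its target genes carry a shorter palindrome called GAS. Type I interferon is known to drive dormant HSCs into the cell cycle, and stem cells are known to keep some interferon-stimulated genes on without infection.

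The promoters of the members carried the letters of these elements far more often than promoters at large. In RefSeq promoter windows of build GRCm38.p6, from 250 bases before to 50 after the start, the ISRE was searched as GAAANNGAAA on both strands with overlaps allowed. Of the 38 members with a promoter entry, 17 held a match (44.7%), against 3.99% of 27025 genes and 3.44% of 32851 single promoters. GAS, searched as TTCNNNGAA, matched 14 of the 38 members (36.8%) and 9.55% of all genes. A match is a stretch of letters and not a measured binding site. The 5 members without an entry were Mx1, Mx2, Oas2, Usp18 and Tap2.

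The stretches of 80 bases below hold ISRE matches of 6 members and are shown because their genes ranged from well above background on every array to none. They are written 5′ to 3′ on the strand of the gene, with ISRE matches in capitals and read on the opposite strand as TTTCNNTTTC. The Isg15 stretch is chr4:156200847-156200926 (minus strand). The Oas1a stretch is chr5:120907526-120907605 (minus strand). The Rsad2 stretch is chr12:26456523-26456602 (minus strand). The Bst2 stretch is chr8:71537553-71537632 (minus strand). The Ifit1 stretch is chr19:34640755-34640834 (plus strand). The Gbp3 stretch is chr3:142559964-142560043 (plus strand).
Isg15: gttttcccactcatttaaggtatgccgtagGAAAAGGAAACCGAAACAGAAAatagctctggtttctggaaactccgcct
Oas1a: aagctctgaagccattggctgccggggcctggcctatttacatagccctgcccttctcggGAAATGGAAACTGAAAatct
Rsad2: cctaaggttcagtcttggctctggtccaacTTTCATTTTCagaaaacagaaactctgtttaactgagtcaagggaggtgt
Bst2: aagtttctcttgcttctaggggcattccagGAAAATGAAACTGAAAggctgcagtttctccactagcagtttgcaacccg
Ifit1: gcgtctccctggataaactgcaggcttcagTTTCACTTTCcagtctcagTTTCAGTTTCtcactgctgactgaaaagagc
Gbp3: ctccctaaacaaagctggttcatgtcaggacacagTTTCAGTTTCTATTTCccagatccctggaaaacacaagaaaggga
Isg15 held 3 overlapping matches, Oas1a and Bst2 held 2 overlapping matches each, Ifit1 held 2 separate ones, Gbp3 held 2 that overlap and Rsad2 held 1. Oas1a was well above background on 8 arrays, Bst2 on 7, Isg15 on 4 and Rsad2 on 3, while Ifit1 and Gbp3 were well above background on none.

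**Figure D1:**
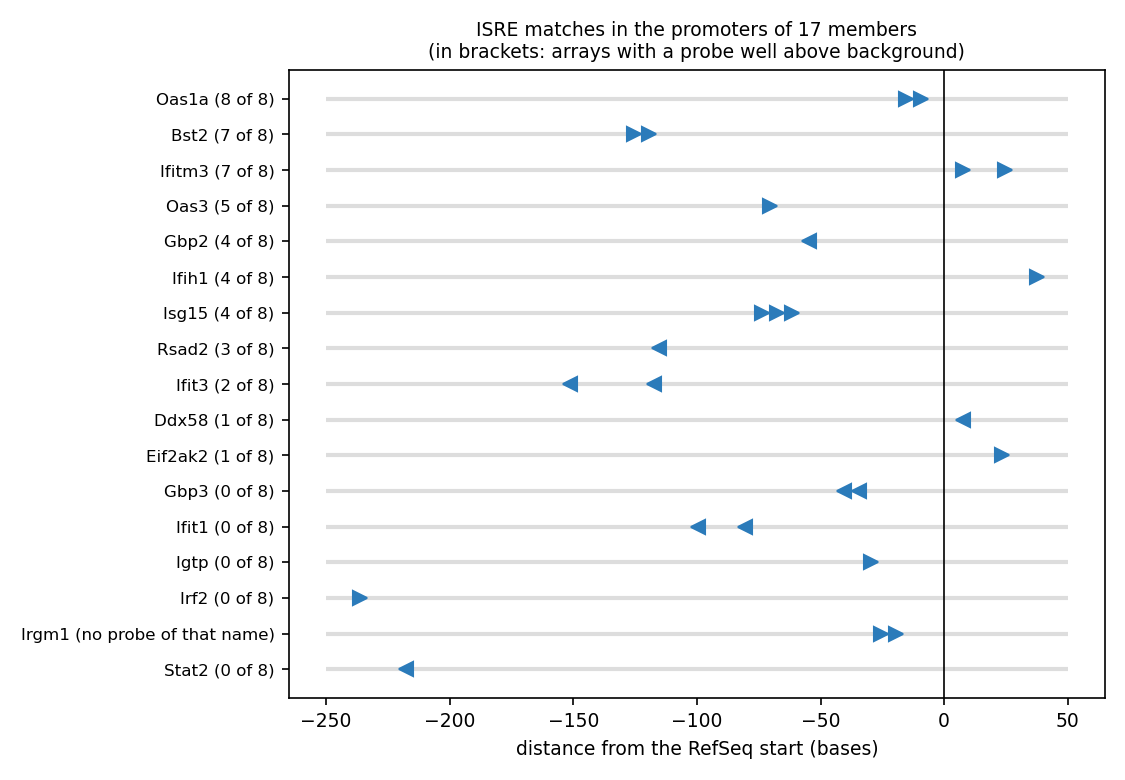
ISRE matches in the promoter windows of the 17 members that hold one; the horizontal axis is the distance from the RefSeq start in bases, and triangles point in the direction of the match. Matches are seen in genes on 8 of 8 arrays (Oas1a) and on none (Ifit1, Gbp3, Igtp, Irf2, Stat2).

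Matches were found among members at every level of detection. Among members with a promoter entry, 9 of the 23 tested held an ISRE match, as did 2 of the 6 seen on 1 array and 5 of the 7 seen on none. The remaining match lay in Irgm1.

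Each level below comes from 1 probe of 60 bases, the brightest among the probes of its gene that met the filter for testing, and the number of arrays on which a member was well above background is that of this probe unless another is named. The probes of 5 members seen on all 8 arrays are given as the files list them, since the comparisons turn on them. The positions are those in the files, which state no genome build.
Oas1a: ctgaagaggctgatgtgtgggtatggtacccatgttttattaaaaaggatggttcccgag
Ifi35: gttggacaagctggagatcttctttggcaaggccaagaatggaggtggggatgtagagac
Ifitm1: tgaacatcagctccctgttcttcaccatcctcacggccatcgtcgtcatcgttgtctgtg
Psmb9: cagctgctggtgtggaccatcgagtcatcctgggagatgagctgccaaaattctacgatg
Tap2: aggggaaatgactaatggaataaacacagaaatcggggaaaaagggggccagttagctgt
The probe of Oas1a is placed at chr5:121158956-121159015, that of Ifi35 at chr11:101273787-101273846 and that of Ifitm1 at chr7:140820876-140820935. The probe of Psmb9 is placed at chr17:33792517-33792576. That of Tap2 is placed at chr17:33825052-33825639, a span longer than the probe.

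Counted through any of its probes, a member was well above background on the Nras+/+ arrays in 24 and 16 cases of 41, in order of replicate number. The NrasG12D/+ arrays showed 24, 24 and 19 members, and the NrasG12D/G12D arrays 20, 16 and 16. As shares these were 58.5% and 39%, then 58.5%, 58.5% and 46.3%, then 48.8%, 39% and 39%. Over all gene names the shares were 45.1% and 39.4%, then 50.1%, 51.5% and 36.8%, then 38.4%, 32.8% and 37.8%. The members' share was above that of all genes on 7 of 8 arrays, the exception being Nras+/+ replicate 2. The arrays of slide 1 other than that replicate had the highest counts, and the part of slide in these counts was not tested.

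**Figure D2:**
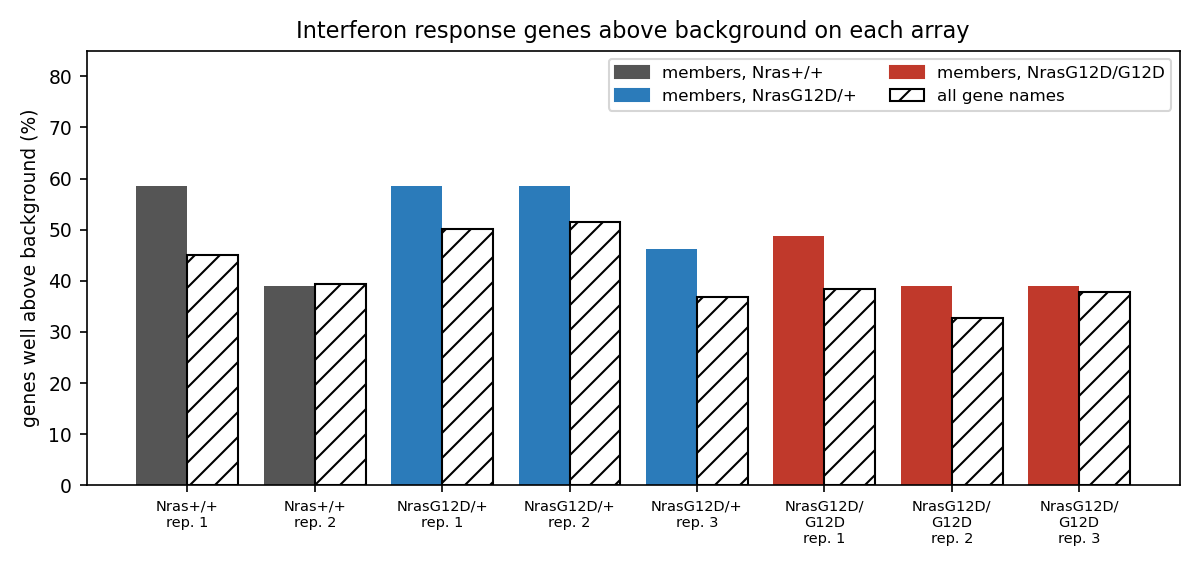
Share of genes well above background on each array, in percent, for the 41 members on the array (solid bars, coloured by genotype) and for all 27745 gene names (hatched bars). The members reach 58.5% on 3 arrays and 39% on 3 others, and all genes run from 32.8% to 51.5%.

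Among all spots, 26% to 42.4% per array were well above background, and 31.2% to 47.1% held a surrogate value that the scanner software gives to signals near background. Markers of HSCs gave a mixed picture for the label: the receptor gene Slamf1 and the surface antigen gene Ly6a were well above background on all 8 arrays, Kit on 1, and Procr, Tek and Gata2 on none. The T cell gene Cd3e, the B cell gene Ms4a1 and the globin gene Hba-a1 were well above background on all 8 arrays as well, while Cd3d, Lck and Cd79a were on none. In RNA of a whole sample, fewer cells of a type and less RNA per cell cannot be told apart.

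No member passed the test between any pair of genotypes. In limma fits over all genes with Benjamini-Hochberg adjustment, 0 of 27 members and 0% of all genes tested had an adjusted p under 0.05 for NrasG12D/+ against Nras+/+ (lowest adjusted p of a member 0.804), for NrasG12D/G12D against Nras+/+ (0.728) and for NrasG12D/G12D against NrasG12D/+ (0.818). Levels are log2 signals relative to the 75th percentile of each array, and a change is a difference of mean levels. At an unadjusted p under 0.05, 1 member, Mx1, was higher in NrasG12D/+ than in Nras+/+, where 4.78% of all genes were under that p. None was in NrasG12D/G12D against Nras+/+ (6.49% of all genes) or against NrasG12D/+ (5.75%). An exact permutation test whose one-sided p is doubled cannot go below 0.2 with 3 arrays against 2, or below 0.1 with 3 against 3.

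The members as a list stayed near the bulk of genes. Their median change was -0.41 for NrasG12D/+ against Nras+/+, beside -0.30 for all genes tested. For NrasG12D/G12D against Nras+/+ it was -0.20 beside -0.46. Between the mutant genotypes it was -0.096 beside -0.18. Mean levels were higher for 11, 12 and 13 of the 27 members in these comparisons, and lower for 16, 15 and 14. Since all genes leaned lower too, 13, 16 and 14 of the 27 changes lay above the median of all genes tested. The comparisons with Nras+/+ share the same 2 control arrays. The mean fell with each added mutant allele in 6 of 27 members, where 27.5% of all genes did so, and it increased with each allele in 3 of 27, beside 11.4% of all genes.

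**Figure D3:**
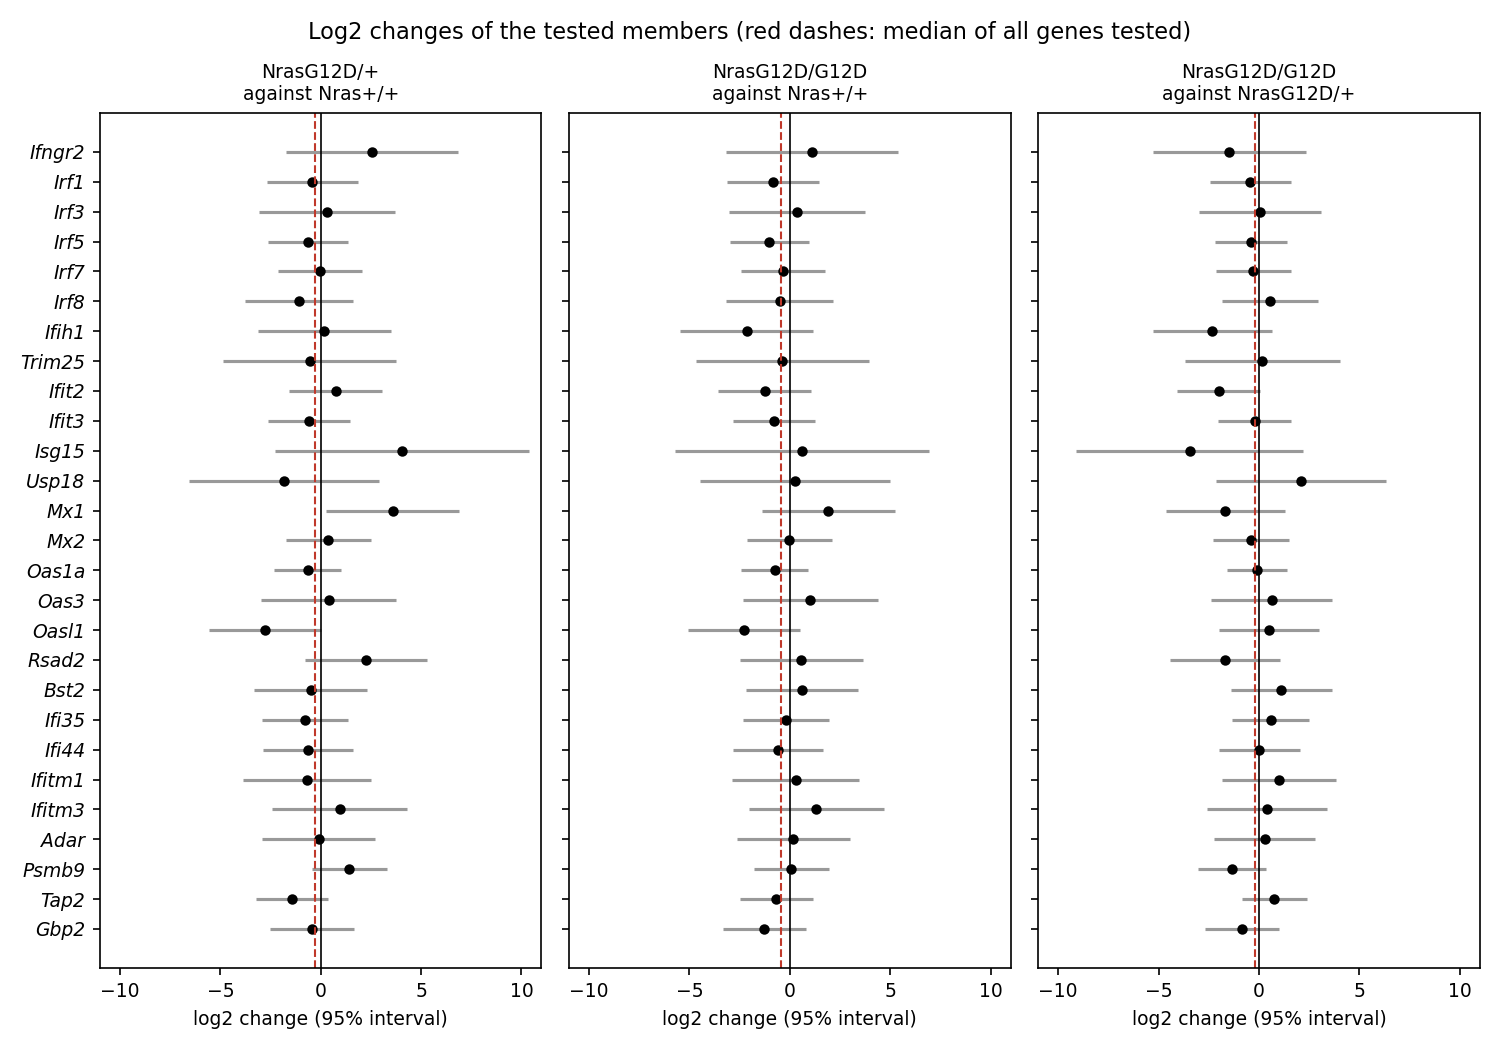
Log2 changes of the 27 tested members, as points with 95% intervals, in the 3 comparisons; the solid line marks 0 and the red dashes the median of all genes tested. Every interval of the members spans 0 except that of Mx1 in NrasG12D/+ against Nras+/+.

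Groups that did not overlap were no more frequent among the members than at large. In NrasG12D/+ against Nras+/+ they numbered 4 of 27 (14.8%), beside 25.3% of all genes. In NrasG12D/G12D against Nras+/+ they numbered 3 of 27 (11.1%), beside 29% of all genes, and between the mutant genotypes 1 of 27 (3.7%), beside 11.2%. These members are described below by role.

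**Figure D4:**
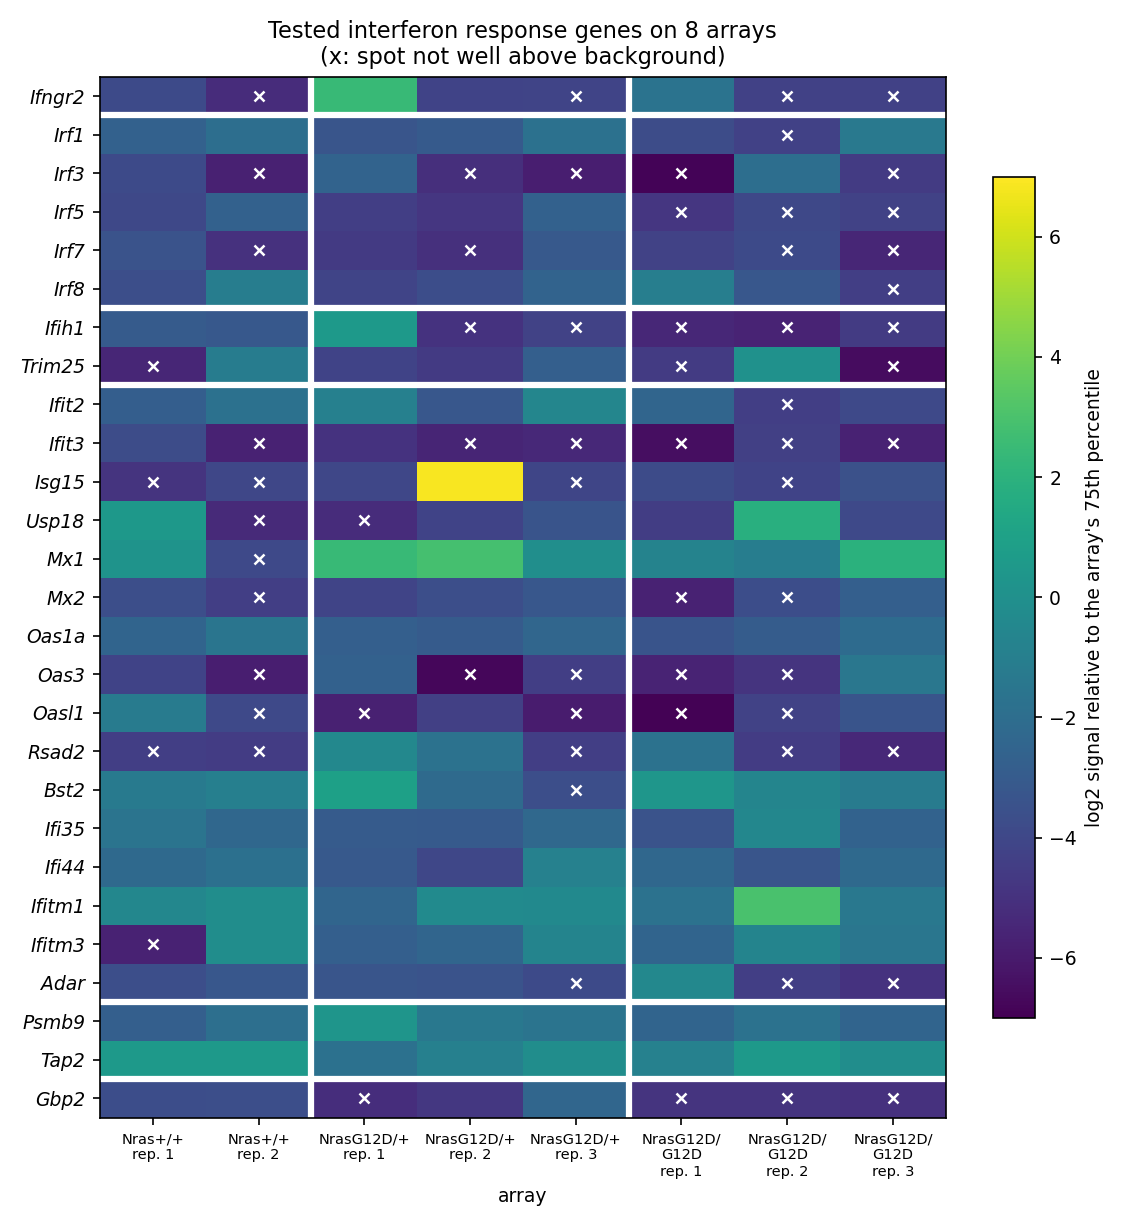
Levels of the 27 tested members on the 8 arrays, in log2 signal relative to the array's 75th percentile, with rows grouped by role and a cross on spots not well above background. Most members lie at -2 or below, as do most genes tested. Array medians were -3.70 to -2.75 for the members and -3.48 to -2.73 for all genes tested. Bright cells such as Isg15 at 6.86 on NrasG12D/+ replicate 2 stand alone.

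The interferon receptors were dim. Ifngr1, the ligand-binding chain for interferon gamma, was well above background on no array, and Ifnar1 and Ifnar2, the chains of the type I receptor, were so on 1 array each. Ifngr2, the second chain of the gamma receptor, was the tested one and was well above background on 4 arrays. Its level was 2.42 on NrasG12D/+ replicate 1, -1.65 on NrasG12D/G12D replicate 1 and -3.83 or lower on the other 6 arrays. A second Ifngr2 probe was well above background on no array and read -7.39 on NrasG12D/+ replicate 1.

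Of the transcription factors, Irf1, Irf3, Irf5, Irf7 and Irf8 were tested. Irf2 and Stat2 were well above background on no array, and no probe carried the name Irf9. Irf1, an activator of both interferon pathways, lay between -4.29 and -1.36 and was well above background on 7 arrays. Irf8, a regulator of myeloid and dendritic cell development, lay between -4.41 and -1.01, also on 7 arrays. A second Irf8 probe was well above background on 4 arrays, at -5.20 on Nras+/+ replicate 2, where the tested probe was at -1.09. Irf5 was well above background on 5 arrays, Irf7, the amplifier of type I interferon genes, on 4 and Irf3 on 3, with levels of -6.84 to -1.97 over the 3 genes. The groups of all 5 overlapped in every comparison.

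The files still hold Irf9 under an older symbol, Isgf3g, and Irgm1 under Irgm. These probes lie outside the rule and are not counted among the members. The brighter Isgf3g probe was well above background on all 8 arrays, at -1.10 and -0.15 in Nras+/+, at -1.61, -1.87 and -1.15 in NrasG12D/+, and at -2.11, -0.33 and -0.83 in NrasG12D/G12D. All 3 NrasG12D/+ arrays lay below both Nras+/+ arrays, the closest pair at -1.15 and -1.10. Groups were apart for 25.3% of all genes in that comparison. The Isgf3g change was -0.92 (SE 0.80, limma adjusted p = 0.809). A second Isgf3g probe was well above background on 4 arrays. It read -3.74 and -3.17 in Nras+/+, -5.38, -4.41 and -5.20 in NrasG12D/+, and -5.35, -5.08 and -3.26 in NrasG12D/G12D. The brightest Irgm probe was well above background on 7 arrays and highest at 0.95 on NrasG12D/+ replicate 2 and 0.70 on NrasG12D/G12D replicate 3. The other Irgm probes were well above background on 0 and 2 arrays. They read -6.04 and -4.74 on NrasG12D/+ replicate 2, and -5.57 and -6.27 on NrasG12D/G12D replicate 3.

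Among the RNA sensors, Ifih1 (Mda5) had levels of -2.98 and -3.14 in Nras+/+, of 0.57, -4.95 and -4.26 in NrasG12D/+, and of -5.45, -5.58 and -4.58 in NrasG12D/G12D. The tested probe was well above background on both Nras+/+ arrays and NrasG12D/+ replicate 1 and on no NrasG12D/G12D array. A second probe was well above background on NrasG12D/+ replicate 3 alone, at -2.19, where the tested probe read -4.26. On NrasG12D/+ replicate 1, where the tested probe read 0.57, the second probe read -7.41. The mean of the tested probe was lower by at least 2.25-fold in NrasG12D/G12D than in Nras+/+, and the groups did not overlap. For this fold each array of the dim group was set at its lowest signal among probes well above background. The log2 change was -2.14 (SE 1.47, 95% interval -5.46 to 1.17, limma adjusted p = 0.742), and -0.073 with slide as a block, a fit that links these genotypes only through NrasG12D/+. After normexp background correction it was -0.45, smaller than that at-least fold.

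Against NrasG12D/+ the Ifih1 mean in NrasG12D/G12D was lower by at least 2.55-fold, with overlapping groups. The log2 change of -2.33 (SE 1.31, limma adjusted p = 0.827) was -0.60 without NrasG12D/+ replicate 1, -0.94 on slide 2 alone and -0.73 after normexp correction. Ddx58 (Rig-I), the other sensor, was well above background on 1 array and was not tested. Of its 4 probes, 1 read 6.48 on NrasG12D/G12D replicate 2 and -5.83 or lower on the other 7 arrays, and the other 3 probes read -5.73, -5.77 and -5.92 on that array. Trim25, which ubiquitinates Rig-I, was well above background on 5 arrays and ranged from -6.55 to 0.10. The value of 0.10 was on NrasG12D/G12D replicate 2, where a second Trim25 probe, well above background on no array, read -5.72.

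Antiviral effectors made up 16 of the tested members. Isg15, a ubiquitin-like protein attached to targets during the response, had levels of -4.91 and -4.0 in Nras+/+, of -3.99, 6.86 and -4.08 in NrasG12D/+, and of -3.82, -4.20 and -3.53 in NrasG12D/G12D. The single value of 6.86, on NrasG12D/+ replicate 2, was 1338-fold above the next array, and the other 7 arrays lay within -4.91 to -3.53. The change in NrasG12D/+ against Nras+/+ was 4.05 (SE 2.79, 95% interval -2.26 to 10.4, limma adjusted p = 0.804). It was at least 12.7-fold with each Nras+/+ array set at its lowest signal among probes well above background. The change was 0.42 without NrasG12D/+ replicate 2, and 2.60 after normexp correction, smaller than that fold. The change thus rests on 1 array.

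Usp18, which removes Isg15 from proteins and damps the type I receptor, was also uneven: 0.47 and -5.36 in Nras+/+, -5.22, -4.17 and -3.38 in NrasG12D/+, and -4.47, 1.82 and -3.89 in NrasG12D/G12D. The highest arrays belonged to different genotypes, and the groups overlapped.

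Mx1, a dynamin-like antiviral GTPase, had levels of 0.17 and -3.90 in Nras+/+, of 2.42, 2.87 and -0.09 in NrasG12D/+, and of -0.72, -1.07 and 1.93 in NrasG12D/G12D. It was well above background on every array but Nras+/+ replicate 2, and that dim array set the low Nras+/+ mean. A second Mx1 probe was well above background on no array and read -6.62, -7.12 and -5.89 in NrasG12D/+. The groups of the tested probe overlapped. The change in NrasG12D/+ against Nras+/+ was 3.60 (SE 1.47, 95% interval 0.28 to 6.91, unadjusted p = 0.0367, limma adjusted p = 0.804). It was 1.56 without Nras+/+ replicate 2, 2.21 after normexp correction and 4.51 on slide 1 alone. Laboratory B6 mice are known to carry a defective Mx1 allele, and the Mx1 promoter drives an inducible Cre used in blood cells; the labels do not say whether that Cre was used. Mx2, its paralogue, was well above background on 5 arrays and lay between -5.64 and -2.77.

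Rsad2 (viperin) had levels of -4.39 and -4.49 in Nras+/+, of -0.48, -1.70 and -4.39 in NrasG12D/+, and of -1.72, -4.53 and -5.37 in NrasG12D/G12D. It was well above background on 2 NrasG12D/+ arrays and 1 NrasG12D/G12D array and on neither Nras+/+ array. NrasG12D/+ did not overlap Nras+/+, although its replicate 3, at -4.39, lay next to the controls. The change was 2.26 (SE 1.35, 95% interval -0.81 to 5.32, limma adjusted p = 0.804), at least 3.69-fold. It was 0.64 after normexp correction, smaller than that fold, 1.40 without NrasG12D/+ replicate 1 and 3.36 on slide 1 alone. Of the other 2 probes, 1 was well above background, on NrasG12D/+ replicate 1 alone, at -2.09.

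The oligoadenylate synthetases, which make the activator of RNase L, showed no common direction. Oas1a was well above background on all 8 arrays and had the smallest spread of the tested members, at -2.50 and -1.58 in Nras+/+, at -2.77, -2.96 and -2.36 in NrasG12D/+, and at -3.35, -2.91 and -2.12 in NrasG12D/G12D. The groups of Oas1a overlapped. Oasl1, a translational repressor of Irf7, had levels of -1.19 and -3.93 in Nras+/+, of -5.73, -4.35 and -5.91 in NrasG12D/+, and of -6.90, -4.25 and -3.39 in NrasG12D/G12D, but was well above background on only 3 arrays, 1 in each genotype. The NrasG12D/+ arrays of Oasl1 lay below both Nras+/+ arrays, with a change of -2.77 (SE 1.23, 95% interval -5.56 to 0.014, limma adjusted p = 0.804), which was -1.40 without Nras+/+ replicate 1 and -1.10 after normexp correction. Oas3 had a pair of probes, well above background on 3 and 2 arrays with no array in common, and Oas2 and Oasl2 were well above background on no array.

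The Ifitm proteins block viral entry at membranes. Ifitm1 was well above background on all 8 arrays, at -0.52 and -0.15 in Nras+/+, at -2.44, -0.30 and -0.36 in NrasG12D/+, and at -1.73, 2.99 and -1.41 in NrasG12D/G12D. The value of 2.99 on NrasG12D/G12D replicate 2 was 8.82-fold above the next array, and the groups overlapped. Ifitm3 was at -5.64 and not well above background on Nras+/+ replicate 1, and lay between -2.77 and -0.15 on the other 7 arrays.

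Ifi35 and Ifi44 were the other effectors whose tested probe was well above background on all 8 arrays. Ifi35 lay at -1.63 and -2.30 in Nras+/+, at -2.99, -3.03 and -2.25 in NrasG12D/+, and at -3.40, -0.51 and -2.60 in NrasG12D/G12D, with overlapping groups. Ifi44 lay at -2.24 and -1.81 in Nras+/+, at -3.11, -4.01 and -0.82 in NrasG12D/+, and at -2.33, -3.31 and -2.24 in NrasG12D/G12D. The NrasG12D/G12D arrays lay below both Nras+/+ arrays, the closest pair reading the same to 2 decimals. The change of Ifi44 was -0.60 (SE 0.995, 95% interval -2.85 to 1.65, limma adjusted p = 0.873). It was -3.34 with slide as a block, which again rests on NrasG12D/+ as the link, -0.32 after normexp correction and 0.044 in the deposited value table, so its direction was not settled.

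Bst2 (tetherin), which holds budding virus at the cell surface, lay between -3.61 and 0.97 and was well above background on 7 arrays. Ifit2, which binds RNA of viruses, was at -2.83 and -1.77 in Nras+/+, at -0.90, -3.20 and -0.58 in NrasG12D/+, and at -2.41, -4.38 and -3.89 in NrasG12D/G12D. Its tested probe was well above background on 7 arrays, all but NrasG12D/G12D replicate 2, where a second probe was well above background, at -1.69, and on that array alone. The groups of the tested probe overlapped. Bst2 and Irf8 are also counted as markers of plasmacytoid dendritic cells, of which Siglech was well above background on no array and Tcf4 and Ccr9 on all 8. Adar, the RNA-editing enzyme, was well above background on 5 arrays and highest, at -0.46, on NrasG12D/G12D replicate 1. A second Adar probe was well above background on no array and read -6.96 on that replicate. Ifit3 was well above background on 2 arrays, Eif2ak2 (Pkr) on 1 and Ifit1 on none.

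Of the antigen processing members, Psmb9, a catalytic subunit of the immunoproteasome, was well above background on all 8 arrays. Its level was -2.76 and -1.89 in Nras+/+, 0.29, -1.39 and -1.61 in NrasG12D/+, and -2.49, -1.72 and -2.51 in NrasG12D/G12D. The NrasG12D/+ arrays lay above all arrays of both other genotypes. The change against Nras+/+ was 1.42 (SE 0.83, 95% interval -0.46 to 3.30, limma adjusted p = 0.804), and it was 0.83 without NrasG12D/+ replicate 1 and 0.69 after normexp correction. NrasG12D/G12D against NrasG12D/+ gave -1.34 (SE 0.74, 95% interval -3.02 to 0.34, limma adjusted p = 0.822), which was -0.63 on slide 2 alone, -0.74 without NrasG12D/+ replicate 1 and -0.75 after normexp correction.

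Tap2, a chain of the transporter that carries peptides to MHC class I, was well above background on all 8 arrays, at 0.52 and 0.49 in Nras+/+, at -1.79, -0.89 and -0.12 in NrasG12D/+, and at -0.86, 0.50 and -0.12 in NrasG12D/G12D. The NrasG12D/+ arrays lay below both Nras+/+ arrays, and those of NrasG12D/G12D overlapped both groups. The change in NrasG12D/+ was -1.44 (SE 0.80, 95% interval -3.24 to 0.36, limma adjusted p = 0.804). Psmb9 and Tap2, neighbours in the MHC region, thus differed from Nras+/+ in opposite directions in NrasG12D/+, with neither past the threshold. Their partners Psmb8 and Tap1 were well above background on 1 array each.

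Of the member interferon-induced GTPases, which attack vacuoles of pathogens, Gbp2 alone was tested under its own name. Gbp2 was at -3.68 and -3.64 in Nras+/+, at -5.19, -4.74 and -2.36 in NrasG12D/+, and at -4.91, -4.91 and -4.99 in NrasG12D/G12D. It was well above background on both Nras+/+ arrays and on no NrasG12D/G12D array. The NrasG12D/G12D mean was lower than that of Nras+/+ by at least 1.48-fold, with a log2 change of -1.27 (SE 0.92, 95% interval -3.35 to 0.81, limma adjusted p = 0.749). The change was -0.41 after normexp correction, smaller than that fold, -0.63 in the deposited value table and -0.68 after quantile normalization. It was -3.88 with slide as a block, a fit in which NrasG12D/+ is the link between these genotypes. Gbp3 and Igtp were well above background on no array.

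**Figure D5:**
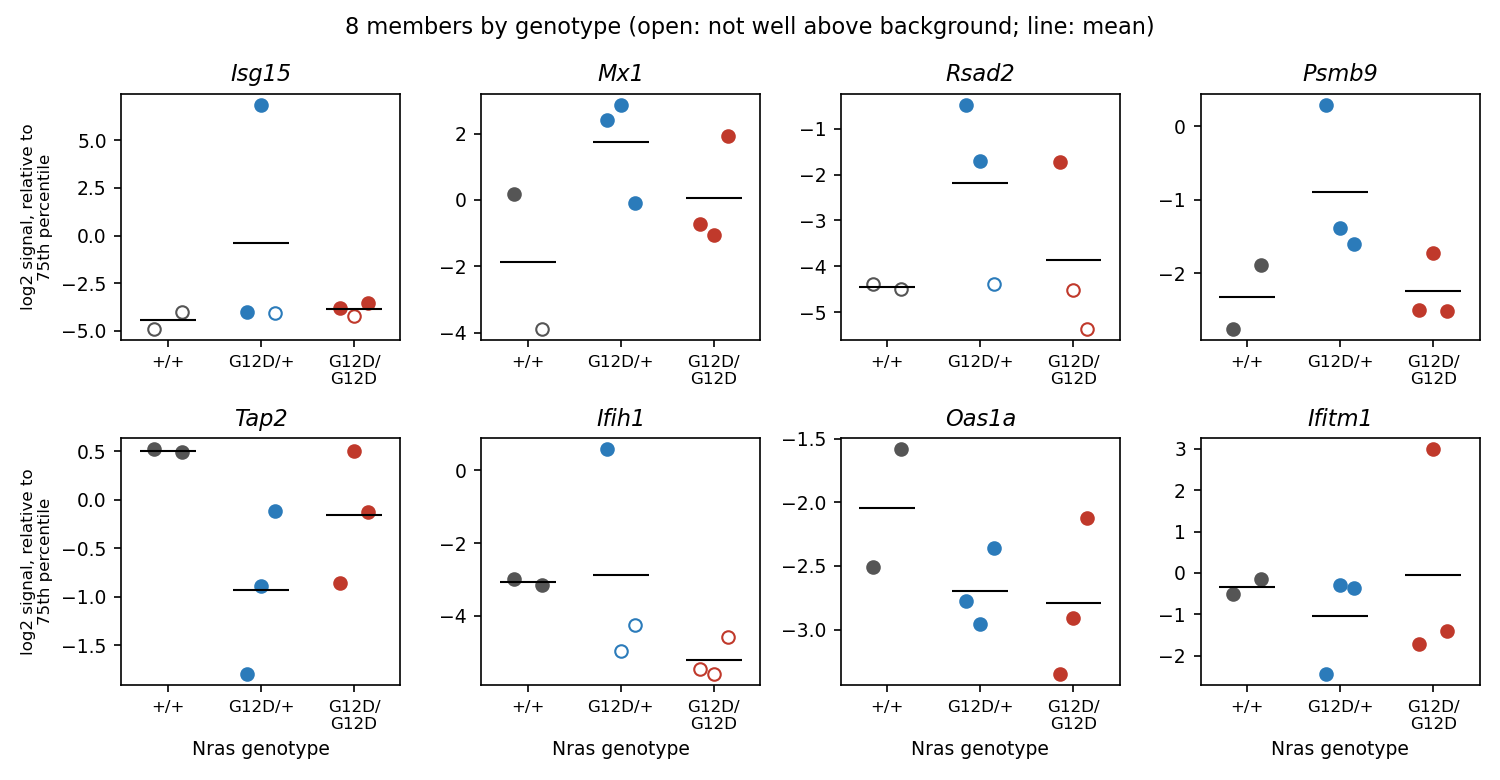
Levels of 8 members by Nras genotype, in log2 signal relative to the array's 75th percentile; each point is an array, open points were not well above background, and lines are group means. Single arrays set the means of Isg15 (6.86) and Ifitm1 (2.99), and Psmb9 is highest in NrasG12D/+.

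Some members had a value that stood alone on 1 array, a share that rests on few genes and was not tested. In 4 of 27 (14.8%: Isg15, Ifngr2, Ifih1 and Ifitm1) the highest array lay at least 3 log2 units, or 8-fold, above the next, beside 7.72% of 14688 genes with a value on every array. Ifngr2 and Ifih1 were highest on NrasG12D/+ replicate 1, which held 282 of the 1134 genes that stood out in this way, Isg15 on NrasG12D/+ replicate 2 and Ifitm1 on NrasG12D/G12D replicate 2. The median spread between arrays of a genotype (pooled SD) was 1.54 for the members and 1.07 for all genes tested.

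Other genes of the interferon system, 72 by name, showed the same absence of calls. Of the 60 on the array, 42 were tested, 0 passed an adjusted p of 0.05 in any comparison, and 13 were well above background on no array. Their median change from Nras+/+ was -0.29 in NrasG12D/+ and -0.66 in NrasG12D/G12D, and -0.26 between the mutants. The interferon genes Ifnb1 and Ifna1 were well above background on 4 and 6 arrays, and Ifna2 and Ifna4 on none. An unadjusted p under 0.05 was seen for 3 of the 42 in NrasG12D/+ against Nras+/+, beside 4.78% of all genes. It was seen for 2 of the 42 in NrasG12D/G12D against Nras+/+ (6.49% of all genes) and for 2 between the mutants (5.75%), shares close to those of all genes.

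Ccl5, a chemokine of T cells and of the interferon response, was at -0.38 and -2.42 in Nras+/+, at 0.89, 0.98 and 0.65 in NrasG12D/+, and at 0.18, 1.42 and 1.59 in NrasG12D/G12D. Both mutant genotypes lay above Nras+/+ on every array, by 2.24 (SE 0.85, limma adjusted p = 0.804) and 2.47 (SE 0.85, limma adjusted p = 0.728), against the same 2 controls. Without Nras+/+ replicate 2 these changes were 1.22 and 1.45. Of 12 T and NK cell markers on the array 6 were tested. Their median changes were -1.11 and -1.50, beside -0.30 and -0.46 for all genes tested. The markers disagreed, with 2 of the 6 higher in each comparison and ranges of -2.55 to 0.18 and -2.67 to 2.17.

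Pml, the core of nuclear bodies, had a lower mean in NrasG12D/+, at 2.16, 0.30 and 2.57 against 4.95 and 3.27 in Nras+/+, and stood at 3.08, 1.08 and 1.24 in NrasG12D/G12D (change -2.43 in NrasG12D/+, SE 1.02, limma adjusted p = 0.804). Ly6a, which encodes the stem cell antigen Sca-1 and is itself interferon-inducible, was at 0.89 and 1.32 in Nras+/+, at -1.75, -1.06 and -0.94 in NrasG12D/+, and at -1.33, 1.33 and -0.72 in NrasG12D/G12D. The NrasG12D/+ arrays of Ly6a lay below both controls (change -2.35, SE 0.91, limma adjusted p = 0.804). B2m, the light chain of MHC class I, was read by a dim probe that was well above background on 2 arrays, at -3.97 and -3.17 in Nras+/+, at -5.94, -4.25 and -4.66 in NrasG12D/+, and at -5.87, -5.11 and -5.75 in NrasG12D/G12D. Its mean was lower by at least 1.58-fold in NrasG12D/G12D than in Nras+/+ (change -2.01, SE 0.79, limma adjusted p = 0.728), and the change was -0.40 after normexp background correction.

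Between the mutant genotypes, Ifi27 was at -1.36, 0.028 and -1.86 in NrasG12D/+ and at -2.87, -3.66 and -3.90 in NrasG12D/G12D (change -2.41, SE 0.72, limma adjusted p = 0.818). H2-D1, an MHC class I heavy chain with close relatives whose RNA its probe may also bind, was at 3.49, 1.81 and 1.58 in NrasG12D/+ and at 1.09, -0.11 and -0.19 in NrasG12D/G12D (change -2.03, SE 0.76, limma adjusted p = 0.818). Neither gene's groups overlapped, and on slide 2 alone, with 1 NrasG12D/+ array, the changes were -1.62 and -1.31.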

How the data were processed

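RNA of 8 HSC samples was measured on Agilent 1-colour arrays. The authors deposited 1 scanner file per array, made per the file headers with Agilent Feature Extraction 10.5.1.1, a tool the submitters' processing notes also name. Its processed signal is an intensity on a linear scale, background-subtracted per the file headers and not scaled between arrays. Other deposited columns mark outlier spots, spots well above background and positive signals by 0 or 1. The deposited value table is a ratio, equal to the processed signal over each array's median (largest relative deviation 1.7e-06).

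Outlier spots were set to missing and not counted as above background. Log2 signals were averaged per probe, and each array's 75th percentile over 6190 probes was subtracted, those well above background throughout. These 2 settings were chosen with the files in view. Probes well above background on at least 2 arrays were kept, the brightest per gene name was tested, and 15091, 15032 and 15038 genes had a value in the 3 comparisons. Fits used limma 3.58.1 (lmFit and eBayes, two-sided, 1 fit for 3 genotypes) in R 4.3.3, with Benjamini-Hochberg adjustment over all genes at 0.05, and were tested on simulated data. Precision is limited by the number of arrays, and the median SE of a log2 change was 0.97, 0.98 and 0.87. For a group with no spot well above background, an at-least fold sets each of its arrays at the higher of its own value and the lowest signal among probes well above background. A probe can exceed that lowest signal without being well above background, as Bst2 did on NrasG12D/+ replicate 3 (-3.61 beside -3.86). Such a fold is therefore approximate and not a strict bound.

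Some items are not reported here. The members, lists and tests were chosen with earlier results of these data known. Members whose tested probe was well above background on all 8 arrays, with an unadjusted p under 0.05 or with groups that do not overlap were named with every array's value, and genes of the wider interferon list at an unadjusted p under 0.05. Values of Usp18, Ifit2, Isgf3g, Irgm, Ddx58, Isg15 and other members, and the sequences shown, were chosen after their values were seen. Alternatives covered scaling, background correction, filter, probe, slide, replicate number, array weights and leaving out each array.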

Additional observations from a re-analysis of the deposited data

How the results depend on the processing

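The count of members past the threshold was 0 in all comparisons under 13, 12 and 13 alternative settings and with each array left out, the lowest adjusted p being 0.527 over the settings and 0.584 with an array left out (limma). The members' median change relative to all genes was -0.11, 0.26 and 0.081 in the 3 comparisons. It moved beyond the spread between arrays in NrasG12D/+ against Nras+/+ with replicate number as a block, to 0.27, and in NrasG12D/G12D against Nras+/+ without NrasG12D/G12D replicate 3, to 0.66. Leaving out arrays gave -0.14 to 0.22, -0.053 to 0.66 and -0.25 to 0.24. The block changed no call. Correlations of the arrays' deviations from their group means were -0.088 to 0.079 over 7 pairs of the same number. They were -0.12 to 0.11 over 14 pairs of different number. Deviations within such small groups are tied to one another, so these correlations cannot decide whether the numbers pair the samples. Counting positive and significant spots raised the mean number of members above background per array from 19.9 to 33.5. The change of Ifi44 in NrasG12D/G12D against Nras+/+ was 0.044 in the deposited value table. The cause of these moves was not tested.

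Single changes were less stable. Over all 81 changes of the members, 88 of 963 values under other settings and 77 of 432 with an array left out had the opposite sign, in 55 of the 81. With slide as a block 9 of 27 members turned sign between the mutant genotypes. Only the 11 changes with an unadjusted p under 0.05, groups apart or an at-least fold of 2 are printed, a choice made after these reversals were counted, and 1 of the 11 turned sign. The median of all genes in NrasG12D/G12D against Nras+/+ was -0.46 here, -0.13 after quantile normalization and 0.19 in the value table, so signs of small changes follow the scaling. Most members were near background, where changes are approximate at best.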
